A study of Mus musculus with 6 samples.

Results

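The genes described here are the collagens and a set of matrix proteoglycans, glycoproteins and cross-linking enzymes that were measured by RNA-seq in sorted marrow cultures labelled as OB progenitors. A gene belonged to the set when its symbol was that of a collagen chain (Col, a type number, the letter a and a chain number) or was Lum, Dcn, Bgn, Fmod, Fn1, Postn, Lox, Loxl1, Loxl2, Fbn1, Eln, Thbs1, Thbs2 or Tnc. A summed count of at least 10 over the 6 libraries was also required. Of the 17469 genes in the deposited table, 58 matched by symbol and 50 also met the count minimum, 37 of them collagens and 13 others. The 8 genes with fewer than 10 summed counts were Eln, which encodes elastin, and the collagens Col6a5, Col6a6, Col9a1, Col9a2, Col13a1, Col25a1 and Col26a1. The cells were grown from bone marrow as BMSCs, the marrow cells that attach in culture, and were sorted for the red reporter tdTomato. All mice carried Ocn-Cre, which places Cre recombinase under the osteocalcin promoter of the osteoblast lineage, and the Ai9 reporter, which makes tdTomato once Cre has acted. Control mice carried only these alleles (Ocn-Cre;Ai9), and the other group (TgAPPswe;Ocn-Cre;Ai9, written TgAPPsweOCN below) also carried human amyloid precursor protein with the Swedish mutation, switched on by the same Cre. All mice were 6 months old and untreated, and each genotype had 3 libraries. The study gives a number of mice for measurements that include RT-PCR of these cells, and whether it also holds for the libraries is unclear. The p-values therefore measure the spread between libraries, which may be technical.

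Collagens are proteins of 3 chains wound into a helix, and each gene encodes 1 chain. Fibrillar collagens (types I, II, III, V and XI among them) build the fibres of bone, cartilage and skin, and type I is the main protein of bone. Type IV collagen forms the network of basement membranes, type VI forms beaded filaments, and the fibril-associated collagens coat fibrils without building them. Small leucine-rich proteoglycans such as decorin and lumican bind fibrils and limit their width, and lysyl oxidases cross-link the finished fibres.

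Depth and identity of the libraries were examined first. Estimated counts summed to 19340810 to 19801060 in the control libraries and 21677461 to 22037840 in the TgAPPsweOCN libraries, so that 3 counts, the smallest level taken as detectable, equalled 0.136 to 0.155 CPM (counts relative to the library total). App, the mouse gene of the amyloid precursor protein (Entrez 11820), had a log2 fold change of 0.45 (adjusted p = 7.87e-05, edgeR), with no overlap between the genotypes. Whether reads of the human transgene were counted in it was not tested. Library 3 lay between libraries 1 and 2 of its genotype in most variable genes. Among genes with a mean of at least 100 counts and a range over 1 log2 unit within a genotype, library 3 held the middle value in 102 of 106 genes (96.2%) in control and in 165 of 170 (97.1%) in TgAPPsweOCN. Whether library 3 holds RNA of libraries 1 and 2 was not tested, so results that change without the libraries numbered 3 are also given without them. Markers of bone-forming and stromal cells were low beside those of myeloid cells, which goes against the labelled cell type. Summed levels of 15 myeloid markers ran from 22760 to 28029 CPM over all 6 libraries, and none of the 15 was near 0. Among them Aif1, Adgre1, Itgam and Fcer1g were up-regulated (log2 fold changes of 2.04, 1.89, 1.26 and 1.11), Mrc1, Cx3cr1, Csf1r and Cd68 were down-regulated (-2.38, -2.05, -1.49 and -1.26), 2 rose and 2 fell by less, and 3 did not pass the test. The part of these myeloid changes in the matrix results was not tested. Summed levels of 16 stromal and osteoblast-lineage markers ran from 530 to 715 CPM in control and from 314 to 439 CPM in TgAPPsweOCN. Of these, Bglap, the gene of osteocalcin, had 0 to 10 counts in a library. Without the contractile genes Acta2 and Tagln the other 14 summed to 222 to 267 CPM and 196 to 298 CPM.

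Matrix genes held a small share of all reads, and the share spread among libraries of 1 genotype. The 50 genes took 0.334% to 0.442% of the counts in control and 0.258% to 0.365% in TgAPPsweOCN libraries, and the ranges overlapped. FPKM values, which are scaled by gene length and by library total, summed over the 37 collagens to 231 to 267 in control and to 139 to 214 in TgAPPsweOCN. Col1a1 and Col1a2 made up 38.1% to 41.1% of that sum in control and 42.3% to 44.0% in TgAPPsweOCN. In bulk samples, fewer cells of a type and less RNA per cell cannot be told apart. Counting error is the only error that the detection limit covers.

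Between the genotypes, 43 of the 50 genes had enough counts to be tested with edgeR's quasi-likelihood test over 12701 genes. A call of up- or down-regulated needed an adjusted p (Benjamini-Hochberg over all of these genes) no higher than 0.05 and a log2 fold change of 1 or more in size. Lox, Dcn, Lum and Col23a1 were up-regulated, which is 9.30% of those tested, beside 8.90% of all genes tested. Col2a1, Col15a1, Col10a1, Col4a5, Col14a1 and Col6a3 were down-regulated, which is 14.0%, beside 9.20% of all genes. Both directions together came to 23.3%, beside 18.1% of all genes. On the adjusted p alone, 5 genes were higher (11.6%, beside 32.5% of all genes) and 15 were lower (34.9%, beside 31.5%). In either direction this came to 46.5%, beside 64.0% of all genes. Without both libraries numbered 3 there were 4 up- and 4 down-regulated genes, and 9 rather than 15 were lower on the adjusted p alone. The median log2 fold change of the 43 was -0.23, beside -0.02 over all genes tested. FPKM values of the genotypes did not overlap in 26 of the 43, with 5 higher and 21 lower in TgAPPsweOCN. Those shares of 11.6% and 48.8% stand beside 24.0% and 48.3% of all genes. Fold changes come from TMM-scaled counts and FPKM values from library totals. With scaling by library size only, the median of all genes moved to -0.23 and that of the 43 matrix genes to -0.44. That scaling gave 4 up- and 9 down-regulated matrix genes, beside 846 up and 1732 down over all genes in place of 1130 and 1169. On the adjusted p alone 5 matrix genes were then higher and 20 lower, beside 22.1% and 45.9% of all genes. A filter on low counts can favour genes that are high in 1 genotype. Of the 43 genes, 40 reached its level in all 3 libraries of both genotypes, Lum reached it only in TgAPPsweOCN libraries, and Col28a1 and Col23a1 lay in between. Lum therefore entered the test only through the genotype in which it was high, and without it 3 of 42 genes (7.14%) were up-regulated.

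**Figure D1:**
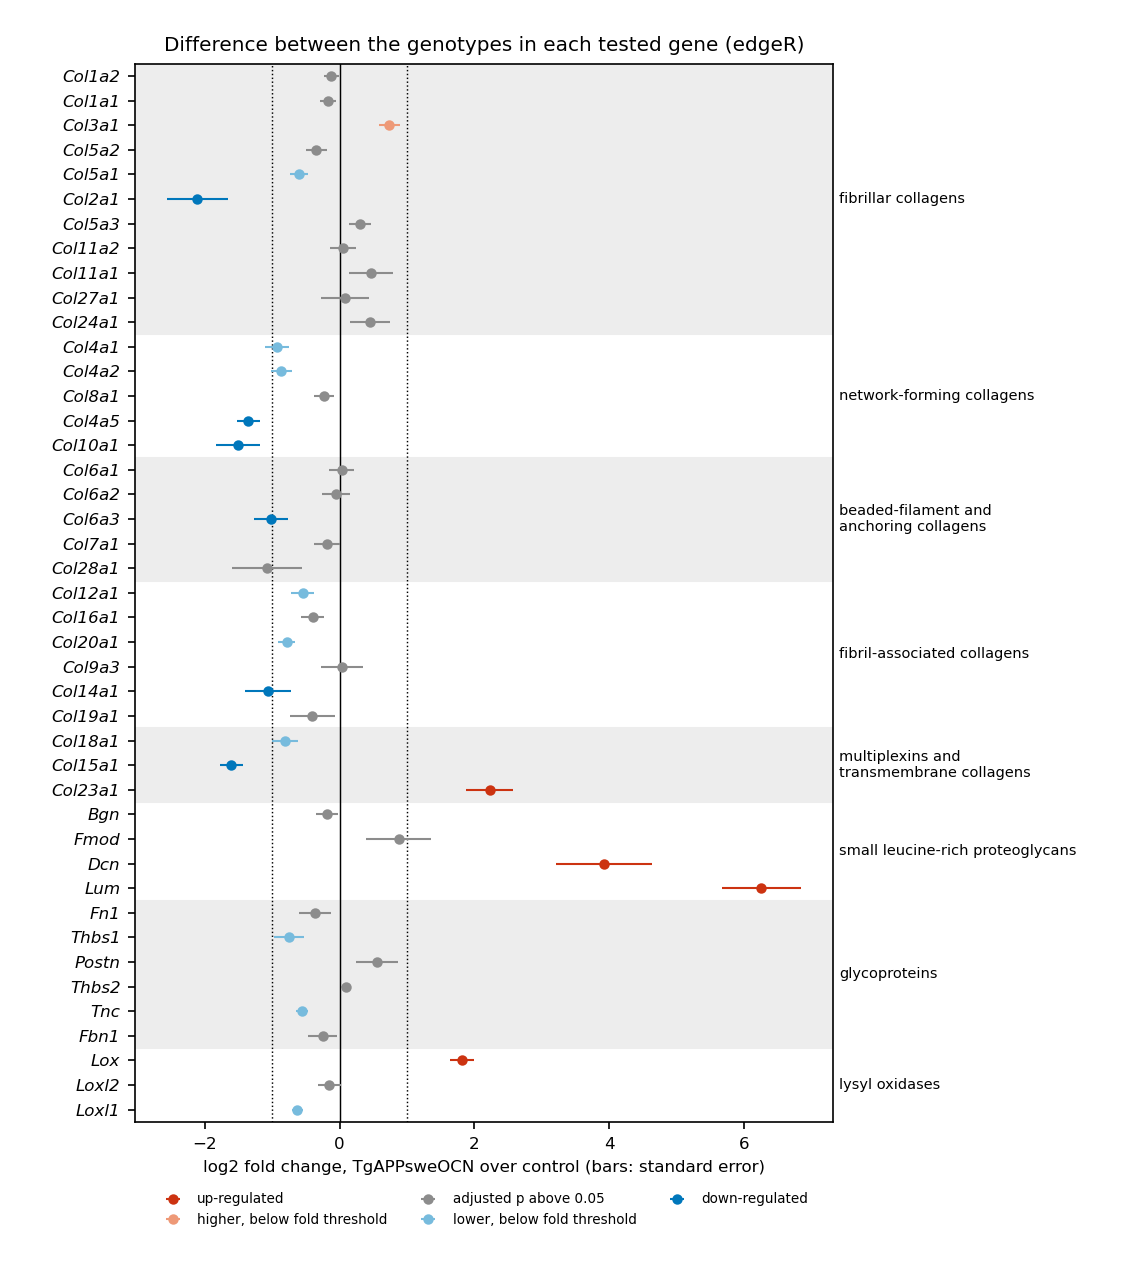
Log2 fold change (TgAPPsweOCN over control, horizontal axis, edgeR) of the 43 tested genes, with bars for the standard error, dotted lines at -1 and 1 and shading by role. The small leucine-rich proteoglycans Lum and Dcn lie farthest to the right at 6.25 and 3.92, and all 5 network-forming collagens lie left of 0.

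Of 11 tested fibrillar collagens, Col3a1 rose, Col5a1 and Col2a1 fell, and 8 did not pass the test. The 9.09% that rose and 18.2% that fell stand beside 32.5% and 31.5% of all genes. The median log2 fold change was 0.05, or -0.17 with scaling by library size, under which 1 rose and 5 fell. Below, values are in the order of libraries 1, 2 and 3. Col1a2 (chr6:4505618-4541543 in GRCm38.p6) had FPKM values of 56.5, 49.4 and 53.0 in control and 34.0, 48.9 and 43.0 in TgAPPsweOCN. Col1a1, the partner chain of type I collagen, had 45.3, 45.7 and 45.4 FPKM in control and 26.9, 41.5 and 36.3 in TgAPPsweOCN. For both chains every TgAPPsweOCN library was below every control library in FPKM, and library 1 of TgAPPsweOCN was the lowest. On TMM-scaled counts neither passed the test, with log2 fold changes of -0.12 (adjusted p = 0.367) for Col1a2 and -0.17 (adjusted p = 0.261) for Col1a1. Scaling by library size gave -0.34 (adjusted p = 0.0384) and -0.38 (adjusted p = 0.0344), which passed the adjusted p but not the fold change threshold. Without library 2 of TgAPPsweOCN, Col1a1 had -0.30 (adjusted p = 0.0402).

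Col3a1 (chr1:45311538-45349706) encodes type III collagen, which forms thin fibres in soft connective tissue. Its FPKM values were 12.9, 10.2 and 11.8 in control and 12.92, 20.7 and 16.6 in TgAPPsweOCN. Library 1 of TgAPPsweOCN was just above the highest control library, and libraries 2 and 3 were well above it. Col3a1 rose with a log2 fold change of 0.74 (SE 0.153, adjusted p = 0.00269), and without both libraries numbered 3 the value was 0.74 (adjusted p = 0.0434). With limma the adjusted p was 0.0513 on log2(FPKM + 0.1) and 0.0757 on log2(FPKM + 1) without a filter on low values. Col5a2 (chr1:45374331-45503282), the neighbour of Col3a1 at a distance of 24624 bases, encodes a chain of type V collagen, which starts new fibrils. Its FPKM values were 11.0, 13.3 and 12.9 in control and 6.22, 10.3 and 8.72 in TgAPPsweOCN, without overlap. Col5a2 did not pass the test, with a log2 fold change of -0.34 (adjusted p = 0.0793), but it passed the adjusted p with DESeq2 (-0.34, adjusted p = 0.0411), with scaling by library size (-0.56, adjusted p = 0.0169), with a replicate block (-0.36, adjusted p = 0.0134) and without library 2 of TgAPPsweOCN (-0.50, adjusted p = 0.0117). The neighbours had fold changes of opposite sign. Col5a1, another type V chain, had 13.7, 10.4 and 12.2 FPKM in control and 5.6, 8.09 and 6.98 in TgAPPsweOCN, again without overlap. Col5a1 fell with a log2 fold change of -0.60 (SE 0.134, adjusted p = 0.00413), and without both libraries numbered 3 its adjusted p was 0.0519.

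RefSeq windows from 250 bases before to 50 after the annotated start (GRCm38.p6, plus strand) are shown for Col1a2 and Col3a1, a pair of abundant fibrillar genes of which only Col3a1 passed the test on TMM-scaled counts. Capitals mark 3 short motifs searched on both strands. The first was TATAAA, the core of the TATA box. The next was CCAAT, which reads ATTGG on the opposite strand. The last was GGGCGG, the core of the GC box. In the shown windows no motif overlapped another.
Col1a2 (chr6:4505368-4505667): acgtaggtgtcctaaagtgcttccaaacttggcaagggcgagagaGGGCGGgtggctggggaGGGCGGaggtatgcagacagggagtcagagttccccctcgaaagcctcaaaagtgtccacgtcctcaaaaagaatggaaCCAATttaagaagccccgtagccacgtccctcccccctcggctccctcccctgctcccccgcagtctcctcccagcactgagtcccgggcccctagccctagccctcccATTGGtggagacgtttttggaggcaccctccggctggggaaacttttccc
Col3a1 (chr1:45311288-45311587): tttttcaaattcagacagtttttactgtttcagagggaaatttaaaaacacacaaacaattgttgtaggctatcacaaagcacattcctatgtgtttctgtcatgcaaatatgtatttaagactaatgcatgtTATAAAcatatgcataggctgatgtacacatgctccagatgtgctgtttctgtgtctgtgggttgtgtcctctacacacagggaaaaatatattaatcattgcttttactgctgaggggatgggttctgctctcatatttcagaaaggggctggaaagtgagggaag
The Col1a2 window held CCAAT on each strand and GGGCGG at 2 places, while the Col3a1 window held TATAAA alone, 117 bases before the start. Of 32851 RefSeq promoter windows, 13.6% held TATAAA, 37.4% held CCAAT and 35.7% held GGGCGG. Among the 39 windows of the 35 matrix genes with an entry, 8 held TATAAA, 14 held CCAAT and 23 held GGGCGG. A match describes letters only.

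Col2a1 was the only fibrillar collagen that was called. Col2a1 encodes type II collagen, the main collagen of cartilage. FPKM values of Col2a1 were 13.2, 3.35 and 7.19 in control and 1.91, 1.2 and 1.62 in TgAPPsweOCN. Control libraries differed widely among themselves, and the lowest of them was still above all TgAPPsweOCN libraries. Col2a1 was down-regulated, with a log2 fold change of -2.11 (SE 0.451, adjusted p = 0.00325), and its value without both libraries numbered 3 was -2.19 (adjusted p = 0.0382). Without library 1 of control, the highest of the 6, it was -1.52 (adjusted p = 0.00432). The type XI chains Col11a1 (log2 fold change of 0.47, adjusted p = 0.235) and Col11a2 (log2 fold change of 0.05, adjusted p = 0.846), which form cartilage fibrils together with type II, did not pass the test, and the sign of Col11a2 turned with scaling by library size (-0.17). Nor did Col5a3 (log2 fold change of 0.30, adjusted p = 0.132) and Col24a1 (log2 fold change of 0.45, adjusted p = 0.213). Col27a1 did not pass either (log2 fold change of 0.08, adjusted p = 0.855), and its sign turned with scaling by library size (-0.13).

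**Figure D2:**
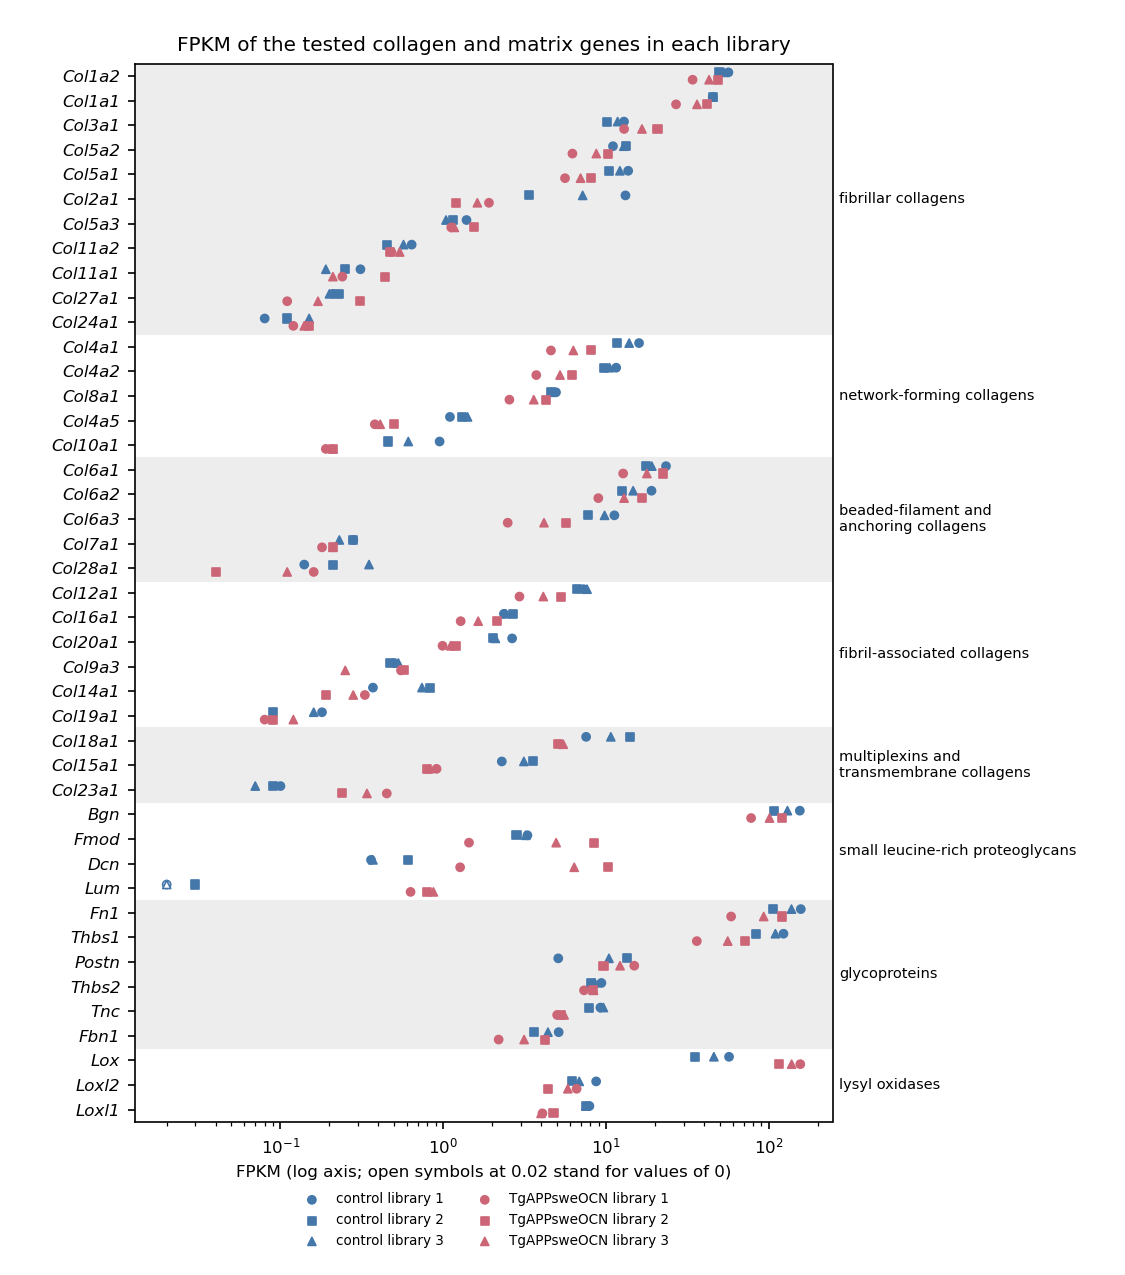
FPKM of the 43 tested genes in each library on a log axis, ordered by role and by level, with circles, squares and triangles for libraries 1, 2 and 3 of control (blue) and TgAPPsweOCN (red). Col4a1, Col4a2, Col15a1 and Col2a1 show all red symbols left of the blue ones, while Lox, Dcn, Lum and Col23a1 show them to the right.

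Of 5 tested network-forming collagens, Col4a1, Col4a2, Col4a5 and Col10a1 fell and Col8a1 did not pass the test, with a median log2 fold change of -0.92. All 5 had FPKM values below every control library, as did 48.3% of all genes tested, and 31.5% of all genes fell. Col4a1 (chr8:11198423-11312889, minus strand) and Col4a2 (chr8:11312805-11449287, plus strand) encode the common chains of type IV collagen. Col4a1 had FPKM values of 16.0, 11.7 and 13.9 in control and 4.59, 8.05 and 6.3 in TgAPPsweOCN. Col4a2 had 11.6, 9.68 and 10.5 FPKM in control and 3.73, 6.15 and 5.22 in TgAPPsweOCN. In both chains library 1 was the highest control and the lowest TgAPPsweOCN library. Col4a1 fell with a log2 fold change of -0.92 (SE 0.181, adjusted p = 0.00205) and Col4a2 with one of -0.86 (SE 0.151, adjusted p = 0.00109). Both values were short of the fold change threshold, which they passed with scaling by library size (-1.13 and -1.07). They also passed it without library 2 of TgAPPsweOCN (-1.12 and -1.01), and Col4a1 did so without library 2 of control (-1.03).

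The Col4a1 and Col4a2 genes lie head to head and overlap by 85 bases in the RefSeq annotation, and their windows are shown because both chains fell by like amounts. The gene start sites on which the shown windows are placed are 21 bases apart on opposite strands. Each sequence is written 5′ to 3′ on the strand of its gene, and capitals mark the 78 bases that both windows hold as reverse complements.
Col4a1 (chr8:11312777-11313076, minus strand): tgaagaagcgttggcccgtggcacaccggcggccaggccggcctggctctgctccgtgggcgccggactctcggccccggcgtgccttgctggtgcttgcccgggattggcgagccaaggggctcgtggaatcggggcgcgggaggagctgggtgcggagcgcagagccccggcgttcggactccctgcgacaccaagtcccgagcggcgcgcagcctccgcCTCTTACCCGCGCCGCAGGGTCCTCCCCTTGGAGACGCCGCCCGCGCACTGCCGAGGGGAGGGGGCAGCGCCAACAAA
Col4a2 (chr8:11312555-11312854, plus strand): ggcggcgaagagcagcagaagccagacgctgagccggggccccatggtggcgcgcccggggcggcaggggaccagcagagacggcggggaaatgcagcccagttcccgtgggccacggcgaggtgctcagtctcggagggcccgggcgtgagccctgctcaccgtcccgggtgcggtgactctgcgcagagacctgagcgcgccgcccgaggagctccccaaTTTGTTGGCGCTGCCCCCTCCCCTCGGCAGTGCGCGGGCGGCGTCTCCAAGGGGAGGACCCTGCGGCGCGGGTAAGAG
The same search found ATTGG 145 bases before the Col4a1 start and CCAAT 32 bases before the Col4a2 start. GGGCGG was found in both windows on one strand or the other and TATAAA in neither. Strand use in the counting is not given in the sources used here, so reads inside the overlap may not be separable by gene.

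Col4a5, on the X chromosome (chrX:141475370-141689236), encodes a type IV chain found in fewer basement membranes. Its FPKM values were 1.1, 1.31 and 1.41 in control and 0.38, 0.5 and 0.41 in TgAPPsweOCN, so that the genotypes were well apart. Col4a5 was down-regulated, with a log2 fold change of -1.35 (SE 0.165, adjusted p = 0.000132). Col10a1 encodes the short-chain collagen of hypertrophic cartilage and had 0.95, 0.46 and 0.61 FPKM in control and 0.19, 0.21 and 0.21 in TgAPPsweOCN. Control library 1 was the highest, and the TgAPPsweOCN libraries held only 13, 14 and 14 counts. Col10a1 was down-regulated, with a log2 fold change of -1.50 (SE 0.327, adjusted p = 0.00365). Without both libraries numbered 3, Col4a5 was at -1.25 (adjusted p = 0.00933) and Col10a1 at -1.60 (adjusted p = 0.0371). Col8a1, another short-chain collagen, did not pass the test (log2 fold change of -0.23, adjusted p = 0.219), but passed the adjusted p without library 2 of TgAPPsweOCN (-0.39, adjusted p = 0.0315). Some marker levels were lower along with the type IV chains. The 7 endothelial markers summed to 30.8 to 33.0 CPM in control and 22.7 to 24.0 CPM in TgAPPsweOCN, with 1 down-regulated (Vwf), 1 lower (Kdr), 1 up-regulated (Pecam1), 2 that did not pass and 2 that were not tested. No endothelial marker was at 0 in a whole genotype. Acta2 and Tagln together fell from 308 to 449 CPM in control to 118 to 141 CPM. They were the only 2 of the 16 stromal and osteoblast-lineage markers that were down-regulated, while 2 were lower, 1 was higher, 10 did not pass and 1 was not tested. Their part in the result was not tested.

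Of the type VI chains, Col6a3 fell and Col6a1 and Col6a2 did not pass the test. Beaded-filament and anchoring collagens had 5 tested members, of which 1 fell and 4 did not pass the test. The 20% that fell stands beside 31.5% of all genes, and none rose, beside 32.5%. Col6a1 (chr10:76708792-76726044) and Col6a2 (chr10:76595756-76623630), neighbours on chromosome 10, encode chains that join with the Col6a3 chain into beaded filaments. Col6a1 had 23.4, 17.6 and 19.1 FPKM in control and 12.8, 22.4 and 17.8 in TgAPPsweOCN. Col6a2 had 19.0, 12.5 and 14.7 FPKM in control and 8.97, 16.6 and 12.9 in TgAPPsweOCN. The genotypes overlapped in both genes, with library 2 of TgAPPsweOCN above some control libraries. Neither passed the test, with log2 fold changes of -0.05 (adjusted p = 0.840) for Col6a2 and 0.03 (adjusted p = 0.898) for Col6a1, which was -0.18 with scaling by library size. Col6a3 (chr1:90766860-90844001) had 11.3, 7.73 and 9.8 FPKM in control and 2.49, 5.68 and 4.16 in TgAPPsweOCN. There the genotypes did not overlap. Col6a3 was down-regulated, with a log2 fold change of -1.01 (SE 0.257, adjusted p = 0.00784). The call was lost without library 1 of control (-0.89, adjusted p = 0.0266), without library 1 of TgAPPsweOCN (-0.76, adjusted p = 0.00623) and without both libraries numbered 3 (-1.01, adjusted p = 0.0789). Of the other beaded-filament and anchoring collagens, Col7a1, the chain of skin anchoring fibrils, had a log2 fold change of -0.19 (adjusted p = 0.422) and Col28a1 had a log2 fold change of -1.07 (adjusted p = 0.0984). Col28a1 passed the call without library 1 of control (-1.37, adjusted p = 0.0447) or of TgAPPsweOCN (-1.54, adjusted p = 0.0495), at 4 to 32 counts a library.

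Fibril-associated collagens, which sit on the surface of fibrils, had 6 tested members, of which 3 fell (50%, beside 31.5% of all genes), none rose (beside 32.5%) and 3 did not pass the test. The median log2 fold change was -0.47. Col14a1 had 0.37, 0.83 and 0.74 FPKM in control and 0.33, 0.19 and 0.28 in TgAPPsweOCN. Control library 1 lay near the highest TgAPPsweOCN library, and the other control libraries lay well above it. Col14a1 was down-regulated, with a log2 fold change of -1.06 (SE 0.343, adjusted p = 0.0240). The call was lost with a replicate block (-1.02, adjusted p = 0.0650) and without both libraries numbered 3 (-0.99, adjusted p = 0.158). Leaving out library 2 or 3 of control or library 2 or 3 of TgAPPsweOCN also ended it, with values of -0.84, -0.97, -0.85 and -1.09. Col20a1 fell with a log2 fold change of -0.78 (adjusted p = 0.000725), and its control FPKM values of 2.65, 2.02 and 2.09 lay above 0.99, 1.19 and 1.11 in TgAPPsweOCN. Col12a1 fell with a log2 fold change of -0.55 (adjusted p = 0.0231), from 7.28, 6.61 and 7.65 FPKM in control to 2.94, 5.31 and 4.12 in TgAPPsweOCN, and its adjusted p was 0.158 without both libraries numbered 3, 0.0543 without library 1 of control, 0.0738 without library 3 of control and 0.0667 without library 3 of TgAPPsweOCN. Col16a1 (log2 fold change of -0.40, adjusted p = 0.0668), Col19a1 (log2 fold change of -0.40, adjusted p = 0.312) and Col9a3 (log2 fold change of 0.04, adjusted p = 0.929) did not pass the test, and the sign of Col9a3 turned with scaling by library size (-0.18). Without library 2 of TgAPPsweOCN, Col16a1 passed the adjusted p (-0.59, adjusted p = 0.00812).

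Both multiplexins, proteoglycan collagens of basement membrane zones, fell, whereas the transmembrane collagen Col23a1 rose. Of these 3 genes 66.7% fell and 33.3% rose, beside 31.5% and 32.5% of all genes. Col18a1, the precursor of endostatin, had 7.55, 14.1 and 10.7 FPKM in control and 5.21, 5.05 and 5.46 in TgAPPsweOCN. The control libraries spread widely, but the TgAPPsweOCN libraries were close to each other and below them. Col18a1 fell with a log2 fold change of -0.81 (SE 0.188, adjusted p = 0.00501), which passed the fold change threshold without library 1 of control (-1.01) and with scaling by library size (-1.02). Without both libraries numbered 3 its adjusted p was 0.0505. Col15a1 (chr4:47207655-47313167) had 2.29, 3.56 and 3.13 FPKM in control and 0.91, 0.8 and 0.82 in TgAPPsweOCN. Every TgAPPsweOCN library was below every control library by a wide gap. Col15a1 was down-regulated, with a log2 fold change of -1.60 (SE 0.167, adjusted p = 5.02e-05), and without both libraries numbered 3 the value was -1.57 (adjusted p = 0.00493). Col23a1 (chr11:51289679-51583925) had only 11, 10 and 7 counts in control and 56, 29 and 42 in TgAPPsweOCN. In FPKM these were 0.1, 0.09 and 0.07 and 0.45, 0.24 and 0.34, without overlap. Col23a1 was up-regulated, with a log2 fold change of 2.23 (SE 0.348, adjusted p = 0.000561), and without both libraries numbered 3 the value was 2.06 (adjusted p = 0.0174). At this level limma on log2(FPKM + 1) gave 0.30, short of the fold change threshold.

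Of the small leucine-rich proteoglycans, Dcn was up-regulated, Bgn and Fmod did not pass the test, and Lum was seen almost only in TgAPPsweOCN. Without Lum, 33.3% of the 3 rose, beside 32.5% of all genes. Dcn and Lum, for decorin and lumican, are neighbours on chromosome 10 (chr10:97479500-97518163 and chr10:97565501-97572703), 47337 bases apart. Dcn had 0.36, 0.61 and 0.37 FPKM in control and 1.27, 10.3 and 6.38 in TgAPPsweOCN. All TgAPPsweOCN libraries were above all control libraries, and library 1 was far below libraries 2 and 3. Dcn was up-regulated, with a log2 fold change of 3.92 (SE 0.715, adjusted p = 0.00137), and without both libraries numbered 3 the value was 3.73 (adjusted p = 0.0286). Without library 2 of TgAPPsweOCN it was 3.29 (adjusted p = 0.00188). Lum had 0, 1 and 0 counts in control and 28, 35 and 38 in TgAPPsweOCN, so that it was below the detection limit of 3 counts in every control library. From 101 and 1 summed counts the ratio of CPM was 90.5, with a 95% exact interval of 15.9 to 3608.4 that covers counting error only. The edgeR value of Lum, a log2 fold change of 6.25, depends on the prior count because control is near 0, and it was 8.10 without library 2 of control. Its call is given as a description, since the filter was met in TgAPPsweOCN alone. On log2(FPKM + 1) the Lum difference was 0.80, below the fold change threshold. Neither Lum nor Col23a1 could be tested when at least 10 counts were required in every library.

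Bgn and Fmod had higher FPKM values than Dcn and Lum in every control library. Bgn, for biglycan, is abundant in bone matrix and had 155, 108 and 130.2 FPKM in control and 77.9, 120.2 and 101 in TgAPPsweOCN. The genotypes overlapped, and Bgn did not pass the test (log2 fold change of -0.18, adjusted p = 0.351). Fmod had 3.29, 2.82 and 3.22 FPKM in control and 1.44, 8.47 and 4.94 in TgAPPsweOCN. Library 1 of TgAPPsweOCN lay below all control libraries and the others lay above them. Fmod did not pass the test (log2 fold change of 0.88, adjusted p = 0.143), and without library 1 of TgAPPsweOCN it was called up-regulated (1.31, adjusted p = 0.000818). Without library 2 of TgAPPsweOCN it was at 0.26 (adjusted p = 0.592).

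Adhesive and matricellular glycoproteins included Fn1 and Thbs1, which with Bgn and Lox had the 4 highest mean FPKM values of the set. Of 6 tested, Thbs1 and Tnc fell (33.3%, beside 31.5% of all genes) and 4 did not pass the test, with a median log2 fold change of -0.31. Fn1, for fibronectin, on which cells assemble matrix, had 157, 106 and 138 FPKM in control and 58.7, 120.3 and 93.1 in TgAPPsweOCN. The genotypes overlapped, and Fn1 did not pass the test (log2 fold change of -0.36, adjusted p = 0.200), but passed the adjusted p without library 2 of TgAPPsweOCN (-0.60, adjusted p = 0.0329). Thbs1, for thrombospondin-1, which activates latent TGF-β, had 123, 84.0 and 109.9 FPKM in control and 36.1, 71.2 and 56.0 in TgAPPsweOCN. There was no overlap. Thbs1 fell with a log2 fold change of -0.75 (SE 0.222, adjusted p = 0.0166), and without both libraries numbered 3 the adjusted p was 0.116. It was 0.0535 without library 1 of control and 0.0510 without library 3 of control. The summed platelet and megakaryocyte markers were lower as well. These 5 markers summed to 276 to 332 CPM in control and 62.7 to 139 CPM in TgAPPsweOCN, almost all of it Pf4. Of the 5, only Pf4 was down-regulated, 2 did not pass and 2 were not tested. Their part in the result was not tested.

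Tnc, for tenascin-C, a glycoprotein of growing and healing tissue, had 9.24, 7.88 and 9.64 FPKM in control and 5.01, 5.28 and 5.53 in TgAPPsweOCN. The TgAPPsweOCN libraries were close to each other and below all controls. Tnc fell with a log2 fold change of -0.56 (SE 0.0825, adjusted p = 0.000415). Postn, for periostin of the periosteum, had 5.09, 13.5 and 10.4 FPKM in control and 14.9, 9.65 and 12.2 in TgAPPsweOCN. Control library 1 was low and the genotypes overlapped, and Postn did not pass the test (log2 fold change of 0.55, adjusted p = 0.149) unless library 2 of control was left out (0.87, adjusted p = 0.0364). Thbs2 had 9.37, 8.1 and 8.54 FPKM in control and 7.33, 8.33 and 8.39 in TgAPPsweOCN, and the genotypes overlapped. Thbs2 did not pass the test (log2 fold change of 0.10, adjusted p = 0.268), and its sign turned with scaling by library size (-0.11). Fbn1, the fibrillin of elastic microfibrils, did not pass either (log2 fold change of -0.25, adjusted p = 0.323), but passed the adjusted p without library 2 of TgAPPsweOCN (-0.49, adjusted p = 0.0371).

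Of 3 tested lysyl oxidases, Lox rose, Loxl1 fell and Loxl2 did not pass the test. The 33.3% that rose and 33.3% that fell stand beside 32.5% and 31.5% of all genes. Lox starts collagen and elastin cross-links by oxidising lysines, and it was the third most abundant of the 50 genes by mean FPKM. Its FPKM values were 57.0, 35.4 and 46.0 in control and 156, 116 and 138 in TgAPPsweOCN. All TgAPPsweOCN libraries were above all control libraries, and in both genotypes library 1 was the highest and library 2 the lowest. Lox was up-regulated, with a log2 fold change of 1.81 (SE 0.176, adjusted p = 3.39e-05), and without both libraries numbered 3 the value was 1.79 (adjusted p = 0.00374). Loxl1, which is needed for elastic fibres, had 7.91, 7.57 and 7.51 FPKM in control and 4.07, 4.76 and 3.99 in TgAPPsweOCN. Here the order was the opposite, without overlap. Loxl1 fell with a log2 fold change of -0.63 (SE 0.0813, adjusted p = 0.000186). Loxl2, which cross-links type IV collagen, had 8.7, 6.16 and 6.85 FPKM in control and 6.6, 4.43 and 5.83 in TgAPPsweOCN. The genotypes overlapped, and Loxl2 did not pass the test (log2 fold change of -0.15, adjusted p = 0.470). Loxl2 was the only one of the 50 genes with fractional counts, as estimated counting gives where a read fits more than 1 place.

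Ratios inside a library do not depend on the scaling of libraries, so 8 ratios of FPKM were compared with an exact permutation test, for which the smallest two-sided p that 3 libraries against 3 allow is 0.1. In 4 ratios of partner chains the genotypes overlapped. Col1a1 to Col1a2 was 0.861 ± 0.0629 (mean ± SD, n = 3) in control and 0.828 ± 0.0317 in TgAPPsweOCN (exact permutation p = 0.4). Overlap was also found for Col4a1 to Col4a2 (1.30 ± 0.086 and 1.25 ± 0.0534, exact p = 0.4), Col5a1 to Col5a2 (0.991 ± 0.229 and 0.828 ± 0.0632, exact p = 0.3) and Col6a1 to Col6a2 (1.31 ± 0.0897 and 1.39 ± 0.034, exact p = 0.3). In the other 4 ratios, which include the partner chains Col6a3 and Col6a1, the genotypes did not overlap. Each of the 4 sets a gene that passed the test over one that did not, so the separation largely restates results given above. Single genes did not overlap in 24.0% (higher) and 48.3% (lower) of all genes tested, and no such share was computed for ratios. Col3a1 to Col1a1 was 0.256 ± 0.0313 in control and 0.479 ± 0.0203 in TgAPPsweOCN, and Col6a3 to Col6a1 was 0.478 ± 0.0367 and 0.227 ± 0.0295. Lox to Col1a1 was 1.02 ± 0.242 and 4.13 ± 1.53, and Dcn to Bgn was 0.0036 ± 0.0018 and 0.0549 ± 0.0353. For each of these the exact permutation p was 0.1, or 0.2 after Benjamini-Hochberg adjustment over the 8 ratios. A p of this size does not pass a threshold of 0.05, and the design cannot reach one that does. Without the libraries numbered 3 the same 4 ratios did not overlap, with means of 0.254 and 0.490 for Col3a1 to Col1a1, 0.461 and 0.224 for Col6a3 to Col6a1, 1.02 and 4.29 for Lox to Col1a1, and 0.00395 and 0.0509 for Dcn to Bgn.

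**Figure D3:**
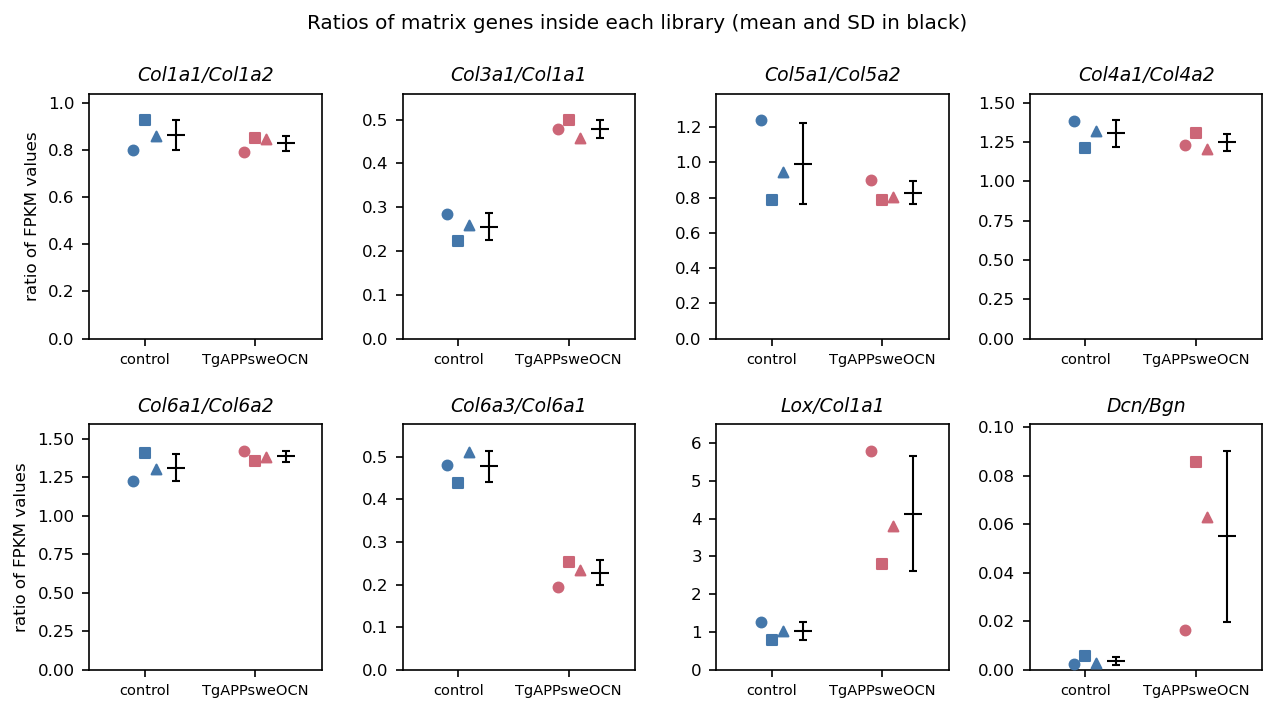
Ratios of FPKM values inside each library (vertical axes from 0) for 8 gene pairs, with circles, squares and triangles for libraries 1, 2 and 3 and black bars for the mean and SD of each genotype. Col3a1 to Col1a1 separates at 0.256 and 0.479, and Col6a3 to Col6a1 at 0.478 and 0.227, while Col1a1 to Col1a2 overlaps.

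Matrix genes also spread among libraries of 1 genotype, which is given here without a test. Among genes with a mean of at least 100 counts in TgAPPsweOCN, 24 of 29 matrix genes were higher in library 2 than in library 1, with a median log2 CPM difference of 0.68, beside 0.03 over all 9938 such genes. In control the order turned, with 23 of 30 matrix genes lower in library 2 than in library 1 and a median difference of -0.26, beside 0.01 over 10164 genes. The median size of the difference was 0.68 for matrix genes and 0.13 for all genes in TgAPPsweOCN, and 0.39 and 0.12 in control. Over all genes at this level, 5662 of 9938 (57.0%) were higher in library 2 in TgAPPsweOCN, and 4793 of 10164 were lower in it in control. Beside these, 7 of 10 stromal and osteoblast-lineage markers in each genotype moved the same way as most matrix genes. Their medians were 0.20 in TgAPPsweOCN and -0.18 in control. The 7 neutrophil markers summed to 42.6, 10.3 and 22.3 CPM in control and 8.67, 35.1 and 21.9 CPM in TgAPPsweOCN, in the same order of libraries as most matrix genes, and Ly6g among them stayed below 3 counts in every library. The part of either list in the spread of the matrix genes was not tested. In all 22 matrix genes with a range over 0.5 log2 units in TgAPPsweOCN, and in all 10 in control, library 3 held the middle value, beside 92.0% of 728 and 79.3% of 571 of all genes with such a range.

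**Figure D4:**
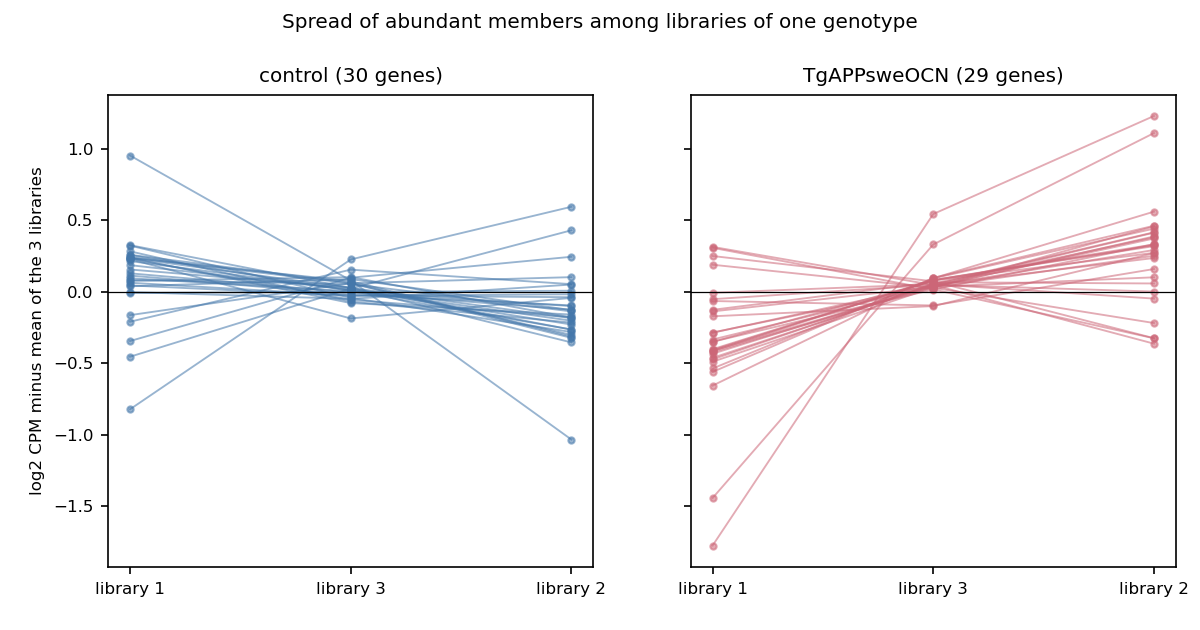
Log2 CPM of each matrix gene with a mean of at least 100 counts, minus its mean over the 3 libraries of a genotype (vertical axis), in libraries 1, 3 and 2 from left to right, with 1 line for each gene. Most of the 29 lines of TgAPPsweOCN climb from library 1 to library 2, while most of the 30 lines of control descend, and library 3 lies between.

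Genes that make, process or bind collagen were examined as 6 further lists, chosen like the set itself with earlier results of these data known. Of 83 listed genes, 81 were in the table and 69 were tested, of which 8 were up-regulated, 6 rose by less than the threshold, 33 did not pass, 21 fell by less than the threshold and 1 was down-regulated. Up-regulated genes were 11.6% of those tested, beside 8.90% of all genes, and down-regulated ones 1.45%, beside 9.20%. The up-regulated genes include Colgalt2 and P3h2, which met the filter through the genotype in which they were high, and no share without them was computed. On the adjusted p alone 20.3% rose, beside 32.5% of all genes, and 31.9% fell, beside 31.5%. The median log2 fold change was -0.23. Without both libraries numbered 3, 10 rather than 14 rose and 15 rather than 22 fell, and the 11 that no longer passed were Ddr1, Emilin1, Hspg2, Lamc1, Loxl4, Matn2, Mia3, P3h2, Sparc, Tgfbi and Vcan. With scaling by library size only, 5 were up- and 9 down-regulated. Without library 1 of TgAPPsweOCN, 5 were up- and 2 down-regulated, and the 6 fits without 1 library had 2 to 4 down-regulated.

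Collagen-modifying enzymes and chaperones had 20 tested genes, of which 7 rose, 6 fell and 7 did not pass, so that 65.0% passed, beside 64.0% of all genes. With scaling by library size 6 rose and 11 fell. Mia3, one of the 7 that rose (log2 fold change of 0.16, adjusted p = 0.0291), did not pass in any fit without 1 library or with a replicate block (adjusted p = 0.0554), and its sign turned with scaling by library size (-0.054). P4hb, the shared subunit of prolyl 4-hydroxylase that stabilises the helix, had 190.3, 194 and 191 FPKM in control and 367, 309 and 334 in TgAPPsweOCN, without overlap, and was up-regulated (log2 fold change of 1.03, SE 0.0791, adjusted p = 8.54e-06). P4hb was below the fold change threshold with scaling by library size (0.81) and without library 1 of TgAPPsweOCN (0.95). Plod1, a lysyl hydroxylase, rose by less (log2 fold change of 0.81, adjusted p = 7.1e-06), as did Ppib, a proline isomerase of the endoplasmic reticulum (log2 fold change of 0.43, adjusted p = 0.00083). The collagen galactosyltransferase Colgalt1 fell (log2 fold change of -0.36, adjusted p = 0.000356). Its relative Colgalt2 had 0.03, 0.08 and 0.03 FPKM in control and 0.41, 0.13 and 0.28 in TgAPPsweOCN, at 2 to 37 counts a library. Colgalt2 was called up-regulated (log2 fold change of 2.86, adjusted p = 0.00337), with too few counts to be tested without library 1 or 3 of TgAPPsweOCN. It met the filter through the genotype in which it was high, so its call is given as a description. P3h2, a prolyl 3-hydroxylase, had 0.05, 0.19 and 0.12 FPKM in control and 0.69, 0.27 and 0.51 in TgAPPsweOCN, at 2 to 33 counts a library. P3h2 was called up-regulated as well (log2 fold change of 2.25, adjusted p = 0.00511), with an adjusted p of 0.0622 without both libraries numbered 3. As for Colgalt2, the filter was met through TgAPPsweOCN, so the call is a description. Among 8 tested genes of procollagen processing and cross-linking, Bmp1, the proteinase that trims the C-terminal end of procollagen, was up-regulated (log2 fold change of 1.60, SE 0.124, adjusted p = 9.02e-06). Of the 8, 3 fell (37.5%, beside 31.5% of all genes) and 4 did not pass, while Bmp1 alone rose (12.5%, beside 32.5%). Loxl4, one of the 3, passed in only 2 of the 6 fits without 1 library. The Bmp1 FPKM values were 9.9, 9.79 and 9.16 in control and 30.0, 21.5 and 26.8 in TgAPPsweOCN, again without overlap. Tgm2, a transglutaminase, fell (log2 fold change of -0.79, adjusted p = 3.83e-06), as did Loxl3 (log2 fold change of -0.51, adjusted p = 0.00537), while the procollagen enhancer Pcolce had a log2 fold change of -0.01 (adjusted p = 0.942).

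Basement membrane partners had 12 tested genes, of which 6 fell (50%, beside 31.5% of all genes), 1 rose (8.33%, beside 32.5%) and 5 did not pass, with a median log2 fold change of -0.56. Nid1, for nidogen-1, which links laminin to type IV collagen, fell from 9.13, 7.68 and 9.16 FPKM in control to 3.29, 3.91 and 4.35 in TgAPPsweOCN (log2 fold change of -0.95, SE 0.108, adjusted p = 8.2e-05). Lama3, a laminin chain, was down-regulated (log2 fold change of -1.50, adjusted p = 0.000595), while Agrn, for the proteoglycan agrin, was up-regulated (log2 fold change of 1.14, adjusted p = 0.000241) but below the fold change threshold with scaling by library size (0.92) and without library 1 of TgAPPsweOCN (0.98). Nid1 passed the fold change threshold without library 2 of control (-1.04), without library 3 of TgAPPsweOCN (-1.04), without both libraries numbered 3 (-1.02) and with scaling by library size (-1.17). Lamc1 had a log2 fold change of -0.43 (adjusted p = 0.00308, or 0.0672 without both libraries numbered 3). Hspg2, for perlecan, had a log2 fold change of -0.47 (adjusted p = 0.0404), and its adjusted p was 0.0716 to 0.123 when library 1 or 3 of either genotype was left out, 0.145 without both libraries numbered 3 and 0.0811 with a replicate block. Of 20 tested elastic fibre and matricellular partners, Emilin2 (log2 fold change of 1.25, adjusted p = 3.26e-07) and Fbln1 (log2 fold change of 1.31, adjusted p = 0.00200) were up-regulated, 2 rose by less, 5 fell and 11 did not pass. The shares of 20% that rose and 25.0% that fell stand beside 32.5% and 31.5% of all genes. With scaling by library size 2 rose and 11 fell. The 2 that rose by less, Emilin1 (log2 fold change of 0.38) and Vcan (0.50), did not pass with scaling by library size (adjusted p = 0.183 and 0.103), in any limma fit or without both libraries numbered 3 (adjusted p = 0.0986 and 0.0880). Emilin2, a glycoprotein of elastic fibres, had 57.0, 60.6 and 58.9 FPKM in control and 119, 121 and 119.7 in TgAPPsweOCN, and libraries of 1 genotype were close to each other. Tgfbi had a log2 fold change of -0.55 (adjusted p = 0.00579, or 0.0757 without both libraries numbered 3), Mgp had a log2 fold change of -0.39 (adjusted p = 0.229) and Ecm1 had a log2 fold change of -0.09 (adjusted p = 0.228), or -0.30 (adjusted p = 0.00147) with scaling by library size. Among 5 tested small leucine-rich proteoglycans outside the set, Omd, for osteomodulin of bone, was up-regulated (log2 fold change of 1.04, adjusted p = 0.00163), which is 20% of the list, beside 8.90% of all genes, and Prelp (log2 fold change of 1.18, adjusted p = 0.0606), Ogn (log2 fold change of -0.49, adjusted p = 0.141) and Podnl1 (log2 fold change of -0.17, adjusted p = 0.574) did not pass. Omd was below the fold change threshold without library 1 of control (0.88) or of TgAPPsweOCN (0.95) and with scaling by library size (0.82). Prelp was called up-regulated without library 1 of TgAPPsweOCN (1.59, adjusted p = 0.00154), and Ogn passed the adjusted p without library 2 of control (-0.72, adjusted p = 0.0303). Of 4 tested collagen receptors Ddr1 and Lair1 fell (50%, beside 31.5% of all genes) and 2 did not pass. Ddr1, a kinase, had a log2 fold change of -0.85 (adjusted p = 0.00975, or 0.0701 without both libraries numbered 3). The others had log2 fold changes of -0.52 (adjusted p = 0.000242) for Lair1, an inhibitory receptor of leukocytes, -0.02 (adjusted p = 0.925) for the uptake receptor Mrc2 and -0.37 (adjusted p = 0.230) for the kinase Ddr2, which passed without library 2 of TgAPPsweOCN (-0.74, adjusted p = 0.00440).

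Of the 50 genes, 7 collagens had too few counts to be tested, with 0 to 17 counts in any library. They were the type IV chains Col4a3, Col4a4 and Col4a6, and Col8a2, Col6a4, Col17a1 and Col22a1. Col4a4 had 5, 7 and 17 counts in control and 1, 7 and 4 in TgAPPsweOCN, and Col4a6 had 0, 6 and 9 and 1, 1 and 2. The FPKM values of the genotypes overlapped in all 7, and at this depth a difference was not detectable. Col4a3 and Col4a4 overlap by 114 bases in the annotation, and Col4a6 lies 1274 bases from Col4a5.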

How the data were processed

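RNA-seq was compared between 3 control and 3 TgAPPsweOCN libraries of sorted cells labelled as OB progenitors. The authors removed rRNA, adaptor and low-quality reads, mapped the rest and deposited estimated counts and FPKM (fragments scaled by gene length and library total, rounded to 2 decimals) for 17469 genes. The submitters' processing notes name HISAT2 2.0.4, Bowtie2 2.2.5, RSEM 1.2.12, DESeq2 1.4.5 and the build mm10, and strand use is not given in the sources used here. A further deposited table repeats FPKM and holds the authors' own log2 ratio and p-value per gene, which were not used.

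These counts, where raw ones had been planned for, were rounded to integers and compared with edgeR 4.0.16 in R 4.3.3 (filterByExpr, TMM, quasi-likelihood test, no replicate block), with Benjamini-Hochberg adjustment over 12701 genes. The biological coefficient of variation was 9.85%. The procedure was tested on simulated data. The genes and the further lists were chosen with earlier results of these data known. By rule, every tested gene of the set is named, values per library are given for the 20 with the highest mean FPKM and for all called genes, and called genes plus up to 3 others with the highest mean FPKM are named from each further list. The myeloid markers named, Vwf, Kdr, Pecam1, Acta2, Tagln, Pf4, Ly6g, Mia3, Plod3, Emilin1, Vcan and the further-list genes named as lost were named after their values were seen, and 1 listed gene is not reported here. Positions and promoter windows came from RefSeq (GRCm38.p6, all 50 genes with a position and 35 with a window). All sample columns were matched to a library. Alternatives were DESeq2 1.42.0, other scalings and filters, a replicate block, limma 3.58.1 on log2(FPKM + 1) or log2(FPKM + 0.1), and fits without single libraries or without both libraries numbered 3.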

Additional observations from a re-analysis of the deposited data

How the results depend on the processing

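In 25 of the 43 tested genes no alternative changed the call or the sign, and in 18 at least 1 alternative did. DESeq2, RLE size factors and a filter of at least 1 count changed no call of a matrix gene, although Col5a2 passed the adjusted p alone with DESeq2 (-0.34, adjusted p = 0.0411). In all 6 fits without 1 library, Lox, Dcn and Col23a1 and 4 of the 6 down-regulated genes (without Col6a3 and Col14a1) kept their calls. Lum kept its call too, which is a description only, since it met the filter in TgAPPsweOCN alone. Scaling by library size only moved the median log2 fold change of the set from -0.23 to -0.44 and gave 5 up- and 9 down-regulated genes in the further lists in place of 8 and 1. Under that scaling the log2 fold changes of Col6a1 (-0.18), Thbs2 (-0.11), Col11a2 (-0.17), Col9a3 (-0.18) and Col27a1 (-0.13) turned negative. With limma on log2(FPKM + 1), with or without the filter, they were -0.20, -0.10, -0.052, -0.0498 and -0.023, and with a pseudocount of 0.1 they were -0.21, -0.11, -0.12, -0.17 and -0.13. The former pseudocount, which understates the change of low genes, gave 2 up-regulated genes in the set, 2 in the further lists and 593 (589 without the filter) over all genes in place of 1130. With the pseudocount of 0.1 Col3a1 no longer passed the adjusted p (0.50, adjusted p = 0.0513), nor did it with the pseudocount of 1 and no filter (0.47, adjusted p = 0.0757). The pseudocount of 0.1 gave 4 up- and 4 down-regulated genes in the further lists. Col4a5, Col10a1, Col14a1, Lum and Col23a1 stayed under the fold change threshold with the pseudocount of 1. No filter on low counts gave 11 up- and 2 down-regulated genes in the further lists, with Prelp among the former (1.18, adjusted p = 0.0496). Requiring 10 counts in every library gave 2 up-regulated genes in the set and 3 that were higher on the adjusted p alone, since Lum and Col23a1 were then not tested.

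Leaving out both libraries numbered 3 was chosen after seeing the data. It gave 9 genes of the set that were lower on the adjusted p alone in place of 15, 2 down-regulated genes in the further lists and a log2 fold change of -0.0205 for Col6a1, with fewer libraries in the fit. Over the 6 fits without 1 library, the further lists had 5 to 8 up- and 2 to 4 down-regulated genes, and all genes had 1103 to 1150 up- and 1125 to 1262 down-regulated ones. The set had 4 to 5 up- and 5 to 7 down-regulated genes in these fits. On the adjusted p alone, 3 genes of the set that had passed were lost in at least 1 of these fits and 9 that had not passed did so in at least 1. Log2 fold changes in them ran from -0.16 to 0.21 for Col6a1, -0.26 to 0.14 for Col6a2, -0.30 to 0.0093 for Loxl2, -0.087 to 0.12 for Col11a2, -0.13 to 0.32 for Col9a3 and -0.39 to 0.37 for Col27a1.

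Deviations from the genotype mean correlated at 0.0054, -0.072 and 0.13 between libraries of the same number. Between libraries of different number they correlated at -0.11 to 0.072. With 3 libraries in a genotype, these values cannot decide whether replicate numbers pair the libraries. With a replicate block 4 genes of the set were up- and 5 down-regulated, 1115 and 1147 over all genes, and Col9a3 stood at -0.0036. The block changed no call of the set other than that of Col14a1, and Col5a2 passed the adjusted p alone under it. In the further lists it ended the pass of Hspg2 and Mia3 on the adjusted p, and Plod3 passed (-0.18, adjusted p = 0.0305). Below about 10 counts a library, depth limited what could be tested, and the cause of the other changes was not tested.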
